A study of Rattus norvegicus with 13 samples.

Results

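Iron handling was described through 8 genes in mammary epithelial cells of the rat: *Tf*, *Tfrc*, *Slc11a2*, *Fth1*, *Ftl1*, *Slc40a1*, *Ireb2* and *Aco1*. They were taken by symbol from the deposited expression table, where they fill 9 of 14790 rows, since *Slc40a1* stands there with 2 Ensembl identifiers. The genes were chosen with the age difference of *Tf* in these same rats in view, so the age differences of the 8 genes are a description. How many of them pass the threshold used for all genes is stated, and no p-value is printed and nothing is drawn from these counts. All 9 rows passed the minimum mean of 1, as did every row of the table.

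RNA-seq was made from 13 Wistar-Furth rats, 1 library per rat, of which 6 were aged 6 weeks and 7 were aged 10 weeks. The younger age lies within, and the older outside, the window of susceptibility (WOS), when the gland responds most to carcinogens. The labels name no treatment or engineered allele for either age. The glands were minced and digested with collagenase. The labels describe a nylon filter that retained ductal fragments, whereas the study's methods for RNA name differential centrifugation to collect ductal organoids, which also hold fibroblasts and immune cells, so that the cells were enriched for epithelium and not purified to it. Each library is named here by its rat number.

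Iron travels in body fluids bound to transferrin, is taken into cells by the transferrin receptor, leaves the endosome through a divalent metal transporter, and is stored in ferritin shells made of heavy and light chains. Ferroportin is the known route of iron out of cells. The iron regulatory proteins bind stem-loops in the messenger RNA of ferritin, ferroportin and the receptor when iron is scarce, and so act on translation and on RNA stability. Transferrin is made mainly by the liver, and in the mammary gland of rodents it is also made by the secretory epithelium and passed into milk.

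The promoter windows of *Tf* and of its receptor *Tfrc* are shown because the age difference of the ligand was far larger than that of its receptor, in values given further on. The 250 bases before the RefSeq start of each gene are given 5′ to 3′ on the strand of the gene, from the GRCr8 assembly, with the letters TATAAA in capitals where they occur. The *Tf* window is chr8:112695377-112695626 on the minus strand, and the *Tfrc* window is chr11:81690319-81690568 on the minus strand.
Tf: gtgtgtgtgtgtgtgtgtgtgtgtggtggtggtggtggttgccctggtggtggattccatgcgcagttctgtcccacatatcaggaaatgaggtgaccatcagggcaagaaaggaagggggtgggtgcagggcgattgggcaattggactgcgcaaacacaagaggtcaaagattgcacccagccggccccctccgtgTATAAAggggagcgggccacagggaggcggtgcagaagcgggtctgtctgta
Tfrc: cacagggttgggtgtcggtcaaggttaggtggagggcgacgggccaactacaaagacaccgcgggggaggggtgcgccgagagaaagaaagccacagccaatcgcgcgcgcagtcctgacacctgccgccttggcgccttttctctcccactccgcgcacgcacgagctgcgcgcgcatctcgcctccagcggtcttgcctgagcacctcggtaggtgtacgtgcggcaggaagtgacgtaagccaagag

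RefSeq promoter windows were found for 6 of the 8 symbols, in 7 windows, since *Slc11a2* has 2 starts. *Fth1* and *Ftl1* had no entry. The letters TATAAA, searched on the strand of the gene, occurred once in the *Tf* window, beginning 52 bases before the start, and in no other of these windows. Of 33469 promoter windows of the same length, 8.06% held TATAAA. The *Tf* window was 58.4% G and C and the *Tfrc* window 64.8%, against a median of 51.2% over all windows. The loop letters CAGTGN preceded 6 bases earlier by a C, which is the core of the element bound by iron regulatory proteins, were searched in the first 50 bases after each start. They occurred in 0 of the 7 windows and in 1.57% of all windows. The rest of each transcript was not searched, and *Fth1* and *Ftl1* had no window. Whether the transcripts of these genes hold the element was therefore not tested. The table has 1 row for *Slc11a2*, in which its starts cannot be told apart.

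Values are normalized counts, which are estimated read counts that the authors scaled per library and rounded. Column totals after that scaling ran from 13261906 to 15659533 at 6 weeks and from 13766735 to 15402814 at 10 weeks, so the depth of sequencing is not read from them. Differences between the ages are log2 fold changes of 6 weeks over 10 weeks on the log2(normalized count + 1) scale, each with its standard error (SE), so that a negative value is higher at 10 weeks. A gene is called where the adjusted p of limma, after Benjamini-Hochberg over all genes, is under 0.05. The labels do not say more of the rats than age and strain. The p-values weigh the age difference against the spread between these rats within an age. In these bulk cells, fewer cells of a type and less RNA per cell cannot be told apart.

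The rats also parted in a way that age does not explain. After the age means were removed, the first principal component held 28.3% of the remaining variation, and its largest gap split the rats into a larger set of 8 (4 at each age) and a smaller set of 5, with rats 75 and 80 at 6 weeks and rats 78, 81 and 83 at 10 weeks. Results are given within these sets where they bear on a gene. All 10 luminal and all 9 basal epithelial markers were in the table and none was at 0 in any rat. The summed luminal markers ran from 39525 to 57892 at 6 weeks and from 53253 to 68273 at 10 weeks. Of the 10 luminal markers, 2 were called as higher at 10 weeks, *Epcam* (−0.39, SE 0.12) and *Cdh1* (−0.47, SE 0.12). Of the 9 basal markers, 1 was, *Cnn1* (−0.46, SE 0.13). Over all genes 7.39% were called as higher at 10 weeks. The median log2 fold change was −0.13 over the luminal and 0.15 over the basal markers. The part of epithelial content in the iron genes was not tested. The summed values of 5 fibroblast markers ran from 105230 to 220582 at 6 weeks and from 18702 to 54383 at 10 weeks, with no overlap. This sum is mostly *Col3a1* and *Col1a1*, which were called as higher at 6 weeks with *Lum*, whereas *Pdgfra* (0.13, SE 0.28) and *Dcn* (0.57, SE 0.29) on the log2 scale defined above overlapped between the ages and were not called.

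Transferrin RNA was several-fold higher outside WOS than within it, and no rat of one age reached the range of the other. Among the iron genes, *Fth1* and *Slc11a2* were also higher at 10 weeks, by far smaller steps, while the receptor, the light chain, ferroportin and both iron regulatory proteins were not called. Of the 9 rows, 3 were called and all 3 were higher at 10 weeks. Over all genes 16.1% were called, 8.71% higher at 6 weeks and 7.39% higher at 10 weeks. The median log2 fold change was 0.14 over the 9 rows and 0.028 over all genes.

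*Tf* (ENSRNOG00000030625) encodes the plasma carrier of iron. At 6 weeks its normalized count was 7844 in rat 70, 9413 in rat 71, 4181 in rat 75, 6365 in rat 80, 5955 in rat 84 and 4471 in rat 86. At 10 weeks it was 32349 in rat 72, 21335 in rat 74, 74723 in rat 78, 71308 in rat 81, 21406 in rat 83, 34351 in rat 85 and 29098 in rat 87. The lowest rat at 10 weeks thus stood above the highest rat at 6 weeks, and rats 78 and 81 stood far above the other rats of their own age. The means were 6372 ± 2000 (SD, n = 6) and 40653 ± 22680 (SD, n = 7), a ratio of 6.38.

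The log2 fold change of *Tf* was −2.56 (SE 0.33). It was −2.11 among the 8 rats of the larger set and −3.23 among the 5 of the smaller set, which holds rats 78 and 81. Leaving out each rat in turn gave values from −2.68 to −2.38. The coefficient of variation between rats was 31.4% at 6 weeks and 55.8% at 10 weeks. *Tf* took from 0.029% to 0.069% of all normalized counts of a library at 6 weeks and from 0.146% to 0.507% at 10 weeks.

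The milk protein genes were read beside *Tf*, since both are products of the secretory epithelium. All 7 milk protein genes were in the table. Their summed normalized counts ran from 9290 to 59588 at 6 weeks and from 8142 to 227734 at 10 weeks, ranges that overlap. The 2 rats with the most *Tf*, rats 81 and 78, also had the largest milk protein sums of their age, at 227734 and 49228, and the other rats of 10 weeks ran from 8142 to 19876. At 6 weeks the largest sums were those of rats 86 and 84, at 59588 and 57265, and these rats were not high in *Tf*. The part of milk protein expression in the age difference of *Tf* was not tested. Of the liver markers, 6 of 7 were absent from the table, and the remaining one, *Apoa1*, was at 43 or less in every rat.

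**Figure D1:**
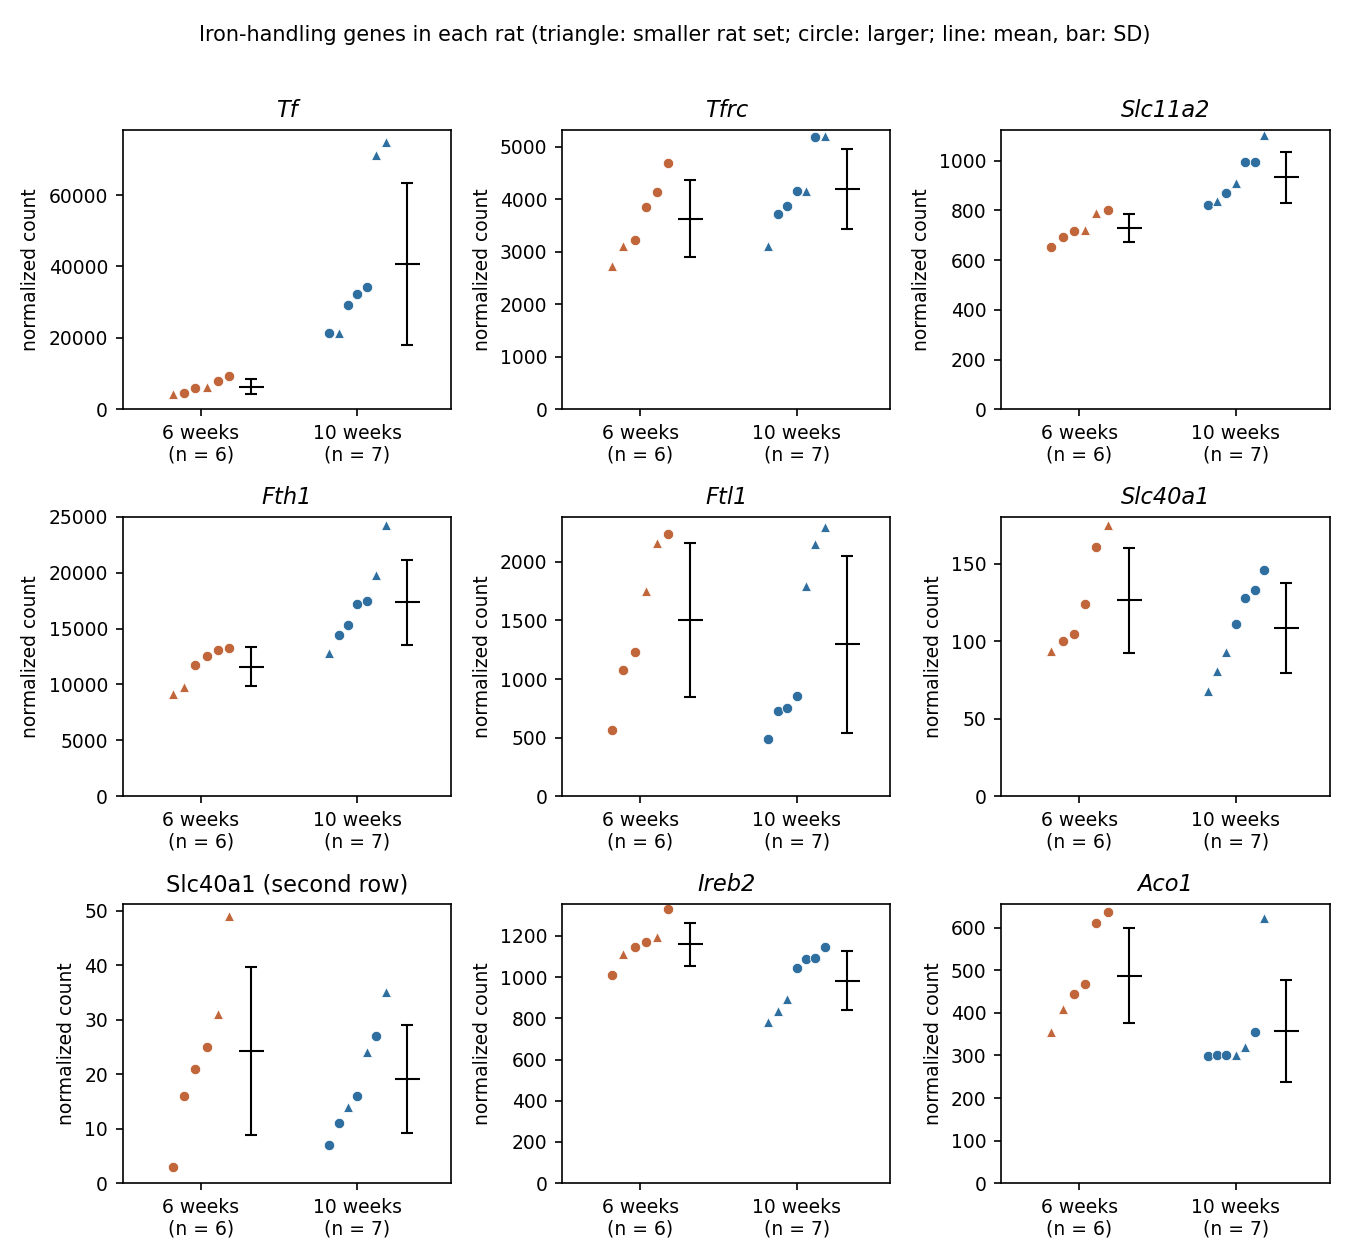
Normalized counts of the 9 member rows in each rat, by age, on linear axes that start at 0. Points are rats, the horizontal line and bar are the mean and SD, and triangles mark the smaller set of rats. *Tf* and *Slc11a2* have no overlap between the ages, *Fth1* overlaps through rat 83 at 12810, and all 5 triangles of *Ftl1* lie at 1749 or above.

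*Tfrc* (ENSRNOG00000001766) encodes the transferrin receptor, which takes up iron-loaded transferrin. At 6 weeks its normalized count was 3227, 4150, 2740, 3115, 3846 and 4698 in rats 70, 71, 75, 80, 84 and 86. At 10 weeks it was 3718, 5189, 4157, 5203, 3120, 4155 and 3883 in rats 72, 74, 78, 81, 83, 85 and 87. The ages overlapped over most of their range, with means of 3629 ± 732 (SD, n = 6) and 4204 ± 762 (SD, n = 7) and a log2 fold change of −0.22 (SE 0.16). The receptor was not called, and rats 78 and 81, the highest for its ligand, held 4157 and 5203.

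*Slc11a2* (ENSRNOG00000019550) encodes the divalent metal transporter DMT1, which moves iron out of the endosome. Its normalized count was 694, 654, 788, 723, 716 and 800 in rats 70, 71, 75, 80, 84 and 86 at 6 weeks. At 10 weeks it was 996, 821, 911, 1102, 837, 994 and 871 in rats 72, 74, 78, 81, 83, 85 and 87. The ages did not overlap, though only by the step from 800 in rat 86 to 821 in rat 74. No overlap was found for 2 of the 9 rows, *Tf* and *Slc11a2*, and for 6.07% of all genes. The means were 729 ± 55.8 (SD, n = 6) and 933 ± 102 (SD, n = 7), a log2 fold change of −0.35 (SE 0.099).

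*Fth1* (ENSRNOG00000022619) encodes the ferritin heavy chain, which oxidizes iron for storage. Its normalized count was 11772, 13077, 9785, 9120, 12531 and 13285 in rats 70, 71, 75, 80, 84 and 86 at 6 weeks. At 10 weeks it was 15359, 17186, 19811, 24249, 12810, 17457 and 14461 in rats 72, 74, 78, 81, 83, 85 and 87. The overlap came from rat 83 alone among the rats of 10 weeks, and the highest values were again those of rats 81 and 78. The means were 11595 ± 1753 (SD, n = 6) and 17333 ± 3799 (SD, n = 7), a log2 fold change of −0.57 (SE 0.16). In the larger set of rats it was −0.34, and there *Fth1* was not called. Processed copies of the heavy chain are known in mammalian genomes, and reads shared with them could have been divided.

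*Ftl1* (ENSRNOG00000031506) encodes the ferritin light chain, which helps form the iron core. Its normalized count was 2237, 1075, 1749, 2156, 1234 and 565 in rats 70, 71, 75, 80, 84 and 86 at 6 weeks, and 754, 487, 2150, 1794, 2294, 855 and 728 in rats 72, 74, 78, 81, 83, 85 and 87 at 10 weeks. The high values were those of the smaller set of rats, from 1749 to 2294, and of rat 70, while the rest of the larger set ran from 487 to 1234. The log2 fold change with age was 0.30 (SE 0.43), and *Ftl1* was not called.

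The light chain has near-identical copies in the rat genome, among which reads can be divided, and its own level is therefore uncertain. One copy, LOC100360087, held 0.907 to 1.45 times the value of *Ftl1* in the 13 rats, with a median of 1.13. Its log2 fold change with age was 0.28, close to that of *Ftl1*. The copies RGD1566189, LOC100362384 and *Ftl1l1* were at 31 or less in every rat. The difference between the age changes of the heavy and the light chain was not tested.

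*Slc40a1* (ENSRNOG00000003872) encodes ferroportin, the exporter of iron. Its normalized count ran from 94 to 175 with a median of 114.5 at 6 weeks, and from 68 to 146 with a median of 111 at 10 weeks. The 3 lowest rats of 10 weeks, at 68, 81 and 93, were rats 81, 83 and 78 of the smaller set. The log2 fold change was 0.22 (SE 0.21), and the gene was not called. The second row with this symbol (ENSRNOG00000049995) held 3 to 49 at 6 weeks and 7 to 35 at 10 weeks, with a log2 fold change of 0.14 (SE 0.52).

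*Ireb2* (ENSRNOG00000013271) encodes iron regulatory protein 2, which is degraded when iron is plentiful. Its normalized count was 1009, 1144, 1112, 1193, 1169 and 1329 in rats 70, 71, 75, 80, 84 and 86 at 6 weeks, and 1042, 1144, 894, 836, 781, 1088 and 1092 in rats 72, 74, 78, 81, 83, 85 and 87 at 10 weeks. The 3 rats below the whole range of 6 weeks were again rats 78, 81 and 83. The log2 fold change was 0.25 (SE 0.12), and the gene was not called.

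*Aco1* (ENSRNOG00000005849) encodes iron regulatory protein 1, which is a cytosolic aconitase when it carries an iron-sulfur cluster. Its normalized count was 611, 469, 356, 409, 637 and 445 in rats 70, 71, 75, 80, 84 and 86 at 6 weeks. At 10 weeks it was 356, 301, 302, 624, 320, 300 and 299 in rats 72, 74, 78, 81, 83, 85 and 87. Rat 81 stood apart at 624, and the other 6 rats of 10 weeks lay between 299 and 356, at or below the lowest rat of 6 weeks. The log2 fold change was 0.47 (SE 0.20) and *Aco1* was not called, whereas without rat 81 it was 0.61 and *Aco1* was called as higher at 6 weeks. It was also called in the larger set of rats, at 0.77, and with sample quality weights, at 0.63.

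**Figure D2:**
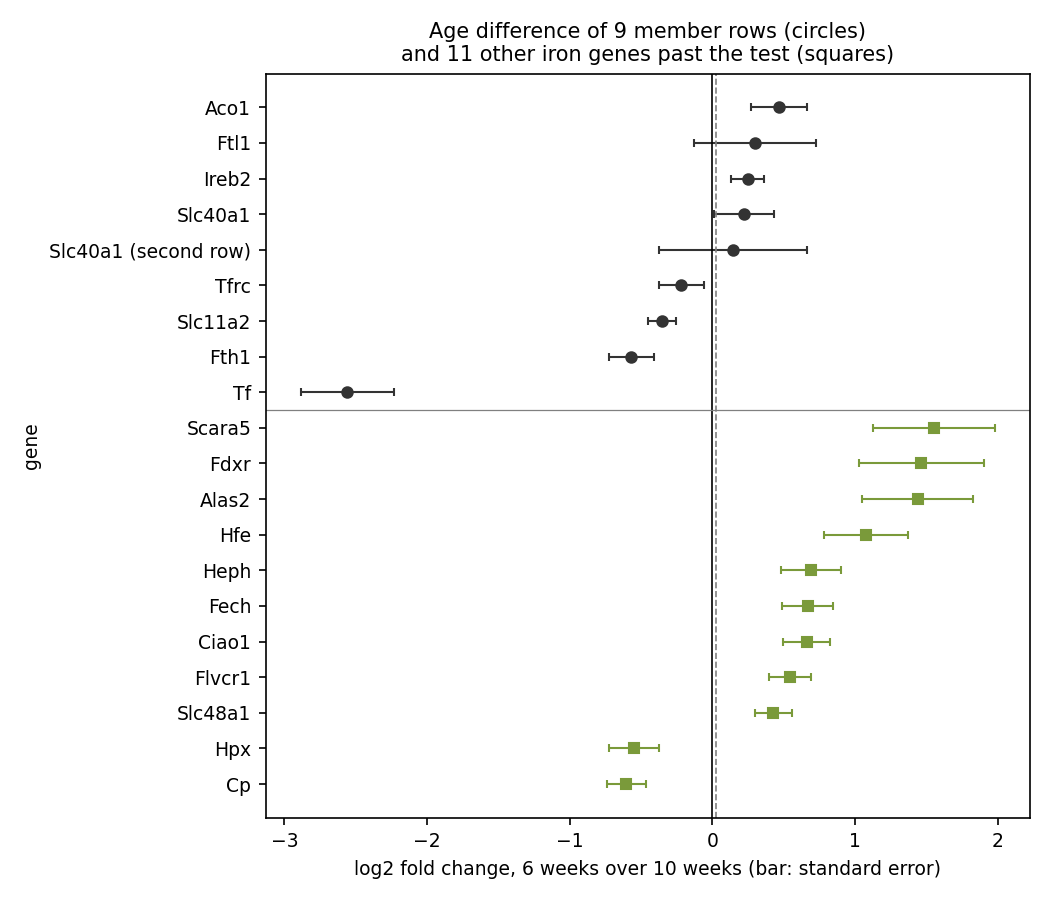
Log2 fold change of 6 weeks over 10 weeks with its SE for the 9 member rows (circles) and for the 11 other iron genes that were called (squares), with the median of all genes as a dashed line. *Tf* stands at −2.56, and 9 of the 11 other called genes lie on the side of 6 weeks.

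Settings moved some members across the threshold. *Fth1* lost its call without rat 70, 75, 80, 74 or 78, at log2 fold changes from −0.57 to −0.50. *Slc11a2* lost it without rat 70, 71, 84 or 72, at values from −0.35 to −0.32, and also when libraries were scaled by their totals (−0.30), by their totals without the most abundant gene (−0.26), and in the larger set of rats (−0.36).

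Other genes of iron and heme metabolism were read from a list of 76, chosen with earlier results of these data known. The adjusted p-values printed for its genes carry that limit. *Ltf*, *Tfr2*, *Ftmt*, *Pcbp1*, *Hamp* and *Hjv* had no row in the expression table under the symbols searched, and 70 genes were tested. Of these, 9 were called as higher at 6 weeks (12.9%, against 8.71% of all genes) and 2 as higher at 10 weeks (2.86%, against 7.39%), and 59 were not called. The median log2 fold change was 0.11. Every one of the 70 genes overlapped between the ages, whereas 6.07% of all genes did not overlap. The 9 genes became 2 without rat 70 or 84, 4 without rat 72 or 74, 5 without rat 71 or 87 and 14 without rat 81, and the 2 genes became 1 without rat 70, 71, 75, 80, 74 or 78. The genes higher at 10 weeks were *Cp* and *Hpx*, which encode secreted plasma proteins. *Hpx* was at 22 or less in every rat and kept its call in 3 of 13 fits that left out 1 rat.

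In uptake and carriage, 1 of 11 genes was called (9.09%, against 16.1% of all genes). *Scara5*, a receptor for ferritin, had a log2 fold change of 1.55 (SE 0.43, limma adjusted p = 0.0287), with normalized counts from 60 to 167 at 6 weeks and from 10 to 60 at 10 weeks. The most abundant genes of this role were *Lcn2*, which binds iron-carrying siderophores, at −0.40 (SE 0.19, limma adjusted p = 0.167), and *Slc39a14*, an importer of metal ions, at −0.26 (SE 0.12, limma adjusted p = 0.164). In storage, *Ncoa4*, which delivers ferritin to the lysosome, stood at 0.014 (SE 0.13) and the iron chaperone *Pcbp2* at −0.092 (SE 0.12), and neither was called.

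Of the 3 genes of export and oxidation, 2 were called (66.7%, against 16.1% of all genes), and these 2 went in opposite directions. *Cp*, the copper oxidase ceruloplasmin that loads iron onto transferrin, had a median normalized count of 4866 at 6 weeks (4311 to 5951) and of 7775 at 10 weeks (5922 to 9521). Only rat 83, at 5922, lay within the range of 6 weeks. The log2 fold change of *Cp* was −0.60 (SE 0.13, limma adjusted p = 0.0110). *Heph*, the membrane-bound relative of ceruloplasmin, had a median of 607.5 at 6 weeks (327 to 912) and of 341 at 10 weeks (293 to 504), a log2 fold change of 0.69 (SE 0.21, limma adjusted p = 0.0425). Neither fibroblast markers nor any other marker list was tested for its part in the changes of *Scara5* and *Heph*. Both genes were higher at the age with the larger fibroblast sum. Among the rats of 6 weeks, *Heph* was lowest in rats 75 and 80, at 327 and 480, whose fibroblast sums were 216826 and 220582. It was highest in rat 84, at 912, whose sum was 107403. *Scara5* was highest in rat 80, at 167, and lowest in rat 84, at 60. Of the fibroblast markers, *Dcn* (0.57, SE 0.29) and *Pdgfra* (0.13, SE 0.28) were not called.

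Of 9 genes of heme synthesis, 2 were called (22.2%, against 16.1% of all genes). The median log2 fold change of the 9 genes was 0.67, against 0.028 over all genes. *Alas2*, the red cell form of the first enzyme, was at 14 to 37 at 6 weeks and at 1 to 14 at 10 weeks, a log2 fold change of 1.44 (SE 0.39, limma adjusted p = 0.0262). *Fech*, which inserts iron into the heme ring, was at 72 to 111 and at 33 to 75, a log2 fold change of 0.67 (SE 0.18, limma adjusted p = 0.0254). The form of the first enzyme used by other cells, *Alas1*, stood at 0.23 (SE 0.16, limma adjusted p = 0.353). A red blood cell list, which holds *Alas2* itself, was in the table with 5 of its rows, and its summed values ran from 1854 to 5679 at 6 weeks and from 254 to 1226 at 10 weeks, with no overlap. The part of red blood cells in the heme genes was not tested.

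Of 12 genes of heme breakdown and transport, 25% were called, against 16.1% of all genes. *Flvcr1*, an exporter of heme, was called at 0.55 (SE 0.15, limma adjusted p = 0.0272) and *Slc48a1*, which moves heme out of the lysosome, at 0.43 (SE 0.13, limma adjusted p = 0.0423). *Hpx*, the plasma binder of heme, was called at −0.55 (SE 0.18, limma adjusted p = 0.0482), from values of 8 to 14 at 6 weeks and 11 to 22 at 10 weeks. The heme oxygenases, which free iron from heme, were not called, with *Hmox1* at −0.021 (SE 0.20) and *Hmox2* at −0.098 (SE 0.11). The sign of *Hmox1* changed with the scaling of the libraries.

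Of 6 genes of control, 1 was called (16.7%, against 16.1% of all genes). It was *Hfe*, which senses transferrin at the cell surface, at 1.08 (SE 0.30, limma adjusted p = 0.0277), from values of 13 to 51 at 6 weeks and 10 to 24 at 10 weeks. *Neo1*, a coreceptor of the hepcidin pathway, stood at 0.25 (SE 0.11, limma adjusted p = 0.131). *Fbxl5*, which marks iron regulatory proteins for degradation, stood at −0.045 (SE 0.16, limma adjusted p = 0.871), with a sign that changed under scaling by library totals.

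Of 27 genes of mitochondrial iron and iron-sulfur clusters, 2 were called (7.41%, against 16.1% of all genes). *Fdxr*, which passes electrons to ferredoxin, was at 13 to 23 at 6 weeks and at 1 to 15 at 10 weeks, a log2 fold change of 1.46 (SE 0.44, limma adjusted p = 0.0392). *Ciao1*, of the cytosolic cluster assembly, was at 59 to 91 and at 33 to 67, a log2 fold change of 0.66 (SE 0.17, limma adjusted p = 0.0191). The most abundant genes of this role, *Hspa9* at −0.22 (SE 0.12) and *Isca1* at −0.20 (SE 0.14), were not called.

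Among the 11 called genes of the wider list, *Cp* and *Ciao1* kept the call in 13 of 13 fits that left out 1 rat. *Fech* lost it in 1 of these fits, without rat 84, at 0.63. *Alas2* lost it without rat 70 or 84, at 1.46 and 1.44, and *Scara5* without rat 70, 80 or 74, at 1.47, 1.38 and 1.38. *Hfe* and *Flvcr1* kept the call in 7 of 13 fits, *Fdxr* and *Slc48a1* in 4, and *Heph* and *Hpx* in 3. Their log2 fold changes over these fits ran from 0.96 to 1.34 for *Hfe*, 0.49 to 0.65 for *Flvcr1*, 1.18 to 1.68 for *Fdxr*, 0.34 to 0.49 for *Slc48a1*, 0.56 to 0.86 for *Heph* and −0.63 to −0.48 for *Hpx*. In the larger set of rats alone, *Scara5* (1.13), *Fech* (0.50), *Flvcr1* (0.52), *Slc48a1* (0.41) and *Hpx* (−0.45) were not called, whereas *Cpox* (0.52) and *Slc39a14* (−0.46), not called over all rats, were.

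**Figure D3:**
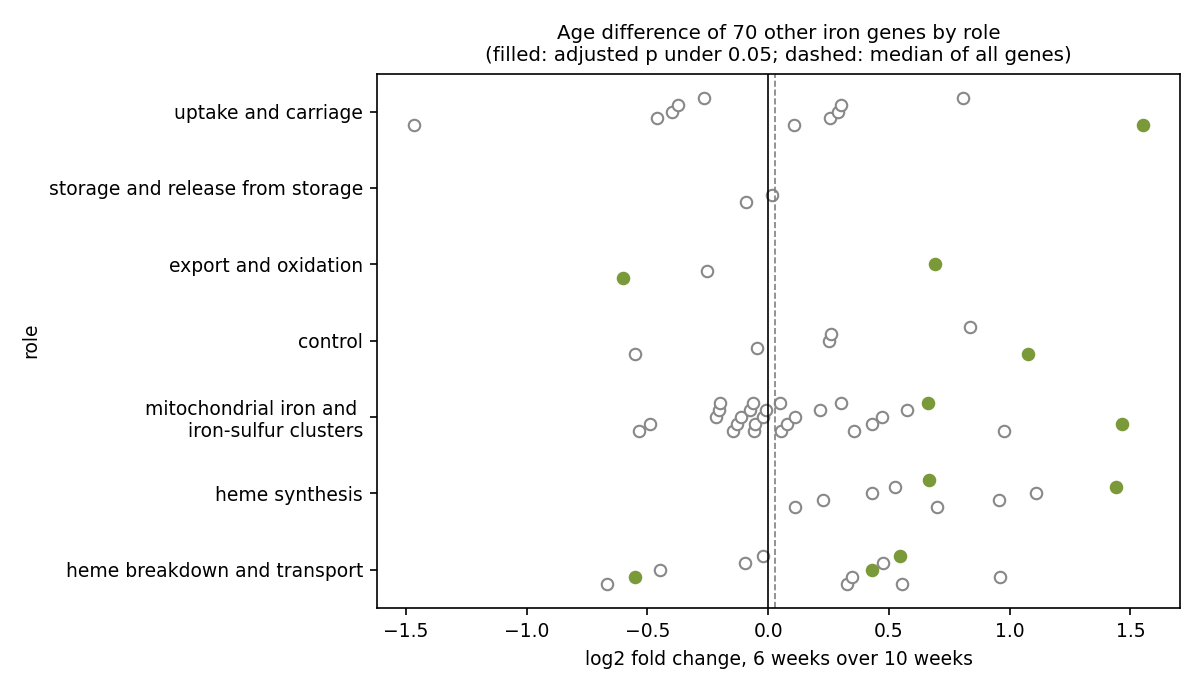
Log2 fold change of 6 weeks over 10 weeks for the 70 other iron genes, grouped by role, with filled points for genes whose limma adjusted p is under 0.05 and the median of all genes as a dashed line. The 9 genes of heme synthesis all lie above 0, and the 2 filled points below 0 are *Cp* and *Hpx*.

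How the iron genes moved together from rat to rat was asked within the ages, with the age means removed, a measure that did not enter the choice of genes. Pearson's r was computed for 36 pairs of the 9 rows over the 13 rats, with two-sided permutation tests that shuffled rats within age. After adjustment over the 36 pairs, 2 pairs passed, and 6 had an unadjusted p under 0.05.

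*Tfrc* and *Fth1* rose and fell together, with r = 0.81 (permutation p = 0.00137, adjusted p = 0.0247) and Spearman's rho = 0.82 (permutation p = 0.00142, adjusted p = 0.0256). The r was 0.86 in the 6 rats of 6 weeks, 0.81 in the 7 rats of 10 weeks and 0.76 in the 8 rats of the larger set. Without rats 75 and 81, the farthest from the median of *Tfrc*, it was 0.76, and without rats 83 and 86, the farthest from the mean of their age, 0.74. As background, 0.399% of all genes were at least as strongly related to *Tfrc* and 0.561% to *Fth1*, in either direction.

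*Ftl1* and *Ireb2* went in opposite directions, with r = −0.89 (permutation p = 0.00047, adjusted p = 0.0169) and rho = −0.93 (permutation p = 0.0003, adjusted p = 0.0108). The r was −0.78 in the rats of 6 weeks, −0.95 in those of 10 weeks and −0.95 in the larger set. Without rats 74 and 86 it was −0.84. Here 4.35% of all genes were at least as strongly related to *Ftl1* and 1.44% to *Ireb2*. *Ftl1* had an r of 0.84 and *Ireb2* of −0.63 with the first residual component, the axis that splits the rats into sets, and the part of that axis in their relation was not tested.

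Neither relation passed in every setting. With libraries scaled by their totals, r was 0.77 for *Tfrc* and *Fth1* and −0.71 for *Ftl1* and *Ireb2*, and 0 of 36 pairs passed, with 4 at an unadjusted p under 0.05. Without rat 86 or rat 72, 0 pairs passed as well, at r of 0.81 in both cases for the first pair and of −0.88 and −0.89 for the second, with 4 and 7 pairs at an unadjusted p under 0.05. The first pair also missed the threshold without rat 71, 75, 84, 81 or 83, at r from 0.76 to 0.81, and the second without rat 74, at −0.86.

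*Tf* and its receptor had an r of 0.28 (permutation p = 0.36, adjusted p = 0.682) and a rho of 0.24. In the larger set of rats the r was −0.65, so that its sign turned, and no relation between ligand and receptor was detectable in 13 rats. *Tf* and *Fth1* had an r of 0.67 (permutation p = 0.024, adjusted p = 0.222), which was −0.25 in the larger set and so rested on rats of the smaller set. Without rats 78 and 81 it was 0.30.

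**Figure D4:**
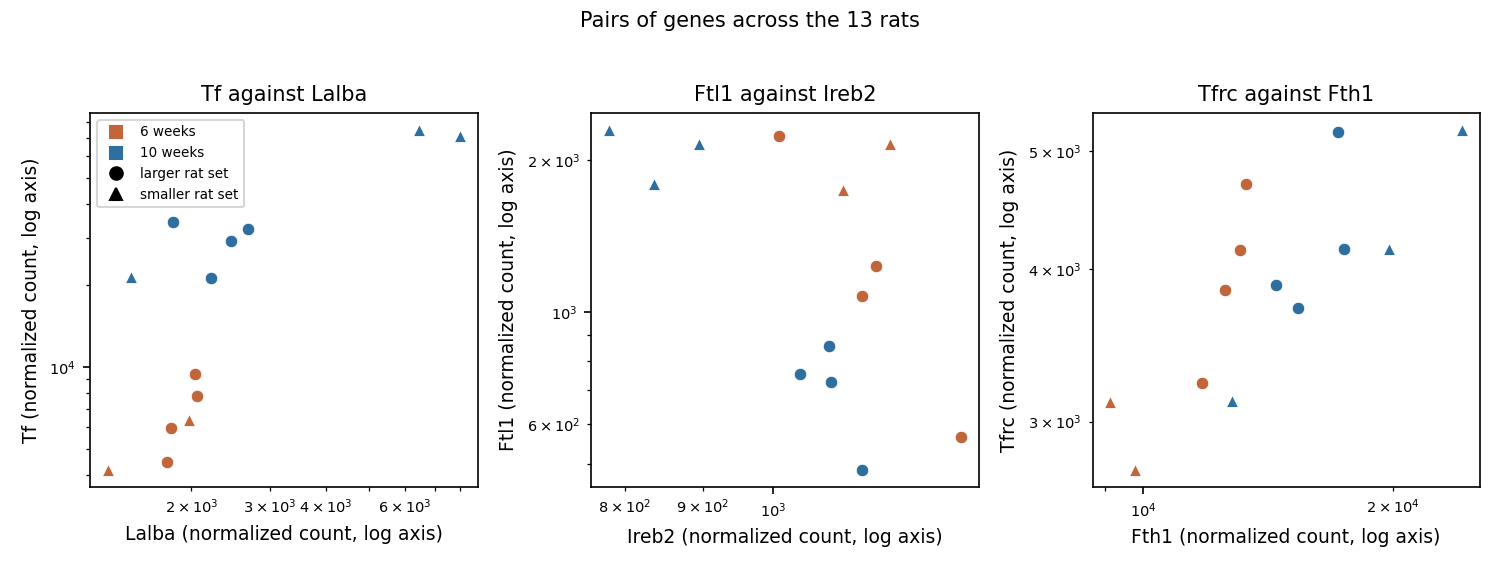
Normalized counts of 3 pairs of genes in the 13 rats on log axes, with the ages in colour and triangles for the smaller set of rats. Rats 78 and 81 stand at the upper right for *Tf* and *Lalba*, *Ftl1* falls as *Ireb2* rises at both ages, and *Tfrc* and *Fth1* rise together at each age.

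The genes whose pattern over the rats was most like that of *Tf*, by r after removal of the age means among 8857 genes with a mean of at least 100, were *Npc2* (0.89), *Plet1* (0.88), *Lalba* (0.88), *Lcn2* (0.87) and *RT1-CE5* (0.87). These are the largest of many values of r and are a description. *Lalba* encodes the milk protein alpha-lactalbumin, and its normalized count was 6474 in rat 78 and 7978 in rat 81, against 1469 to 2675 in the other rats of 10 weeks and 1302 to 2056 at 6 weeks. *Plet1* did not overlap between the ages, from 6804 to 9289 at 6 weeks and from 10115 to 22588 at 10 weeks. *RT1-CE5* belongs to the class I histocompatibility family, whose members share sequence, and its value is uncertain. Rats 78 and 81 lay farthest from the mean *Tf* of their own age. Without them, the r was 0.70 for *Npc2*, 0.81 for *Plet1*, 0.60 for *Lalba*, 0.77 for *Lcn2* and 0.74 for *RT1-CE5*, so that these 2 rats carry part of the likeness. The genes most like *Tfrc* were *Tmem47* (0.92), *Denr* (0.91) and *Impad1* (0.90), with r of 0.86, 0.89 and 0.81 without rats 83 and 86, the farthest from the mean *Tfrc* of their age.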

How the data were processed

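RNA-seq libraries of mammary epithelial cells from 13 rats were analysed, 6 at 6 weeks and 7 at 10 weeks, with ages taken from the sample titles. Per the labels, RSEM 1.2.22 was used and the build was rn5, and edgeR and DESeq2 are also named there. The authors estimated counts per gene, scaled each library, rounded the result and deposited it, so the unit is treated as a score and called normalized count. Raw depth, annotation and strand of counting were not given in the sources used here. All 13 value columns were used. The authors' deposited comparison of the ages, with log2 fold changes and abundances, a likelihood ratio score, p-values, their −log10 values and false discovery rates, was not used.

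A count test was planned for raw counts and limma for scaled values. Since the values are scaled, limma 3.58.1 in R 4.3.3 was run, on log2(normalized count + 1), keeping the 14790 genes whose mean reached 1, which was every gene, without covariates, two-sided, with Benjamini-Hochberg adjustment at 0.05. It was tested on simulated data. No columns were identical, and the most alike were rats 72 and 87 (r = 0.978). Correlations used 100000 permutations in Python 3.11.15 with numpy 2.4.6 (20000 for alternatives). Rats were parted at the largest gap of the first residual component.

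The 8 genes, the wider list and the marker lists were chosen with earlier results of these data known. Named genes of the wider list are those called (at most 20) and the 2 with the highest mean in each role, and for likeness the 5 genes nearest *Tf* and 3 nearest *Tfrc*. Lists for adipocytes (sums of 1947 to 2814 at 6 weeks and 2421 to 3108 at 10 weeks), macrophages (875 to 2039 and 1023 to 2265), endothelium (5918 to 10121 and 5480 to 8810), basal epithelium (23693 to 35955 and 32174 to 42435) and lymphocytes (3 to 69 and 0 to 101) were read as well. Alternatives covered scaling, pseudocount, filters, weights, the residual component, the sets of rats and each rat left out. Leaving out the 2 rats farthest from their age mean was chosen after seeing the data. Sequences came from RefSeq (GRCr8). The genes near *Tf* were taken by RefSeq order among symbols present in the expression table, and no other RefSeq positions were joined to it.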

Additional observations from a re-analysis of the deposited data

Results flagged for a closer look

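In 64 groups looked at (32 genes at 2 ages), 3 had 1 rat farther from the rest than a 95% limit for gaps allows, a limit that chance passes in about 1 of 20 groups. *Aco1* was at 624 in rat 81 at 10 weeks, against 299 to 356 elsewhere at that age. *Alas2* was at 37 in rat 75 at 6 weeks, against 14 to 21 in the others. *Flvcr1* was at 246 in rat 85 at 10 weeks, against 126 to 169 in the others.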

How the results depend on the processing

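No paired analysis was possible because each rat number occurs once and the ages share none. *Tf* was higher at 10 weeks in each alternative run, with log2 fold changes from −3.23 to −2.11, which is a description, since *Tf* was chosen for this difference and some alternatives (no filter on low values, summed rows of other genes) cannot move it. In the smaller set of rats alone (2 against 3) *Tf* stood at −3.23 and was not called. In that set limma called 0 of 14770 genes in either direction, 0 members and 0 genes of the wider list in either direction, with 1976, 3 and 6 at an unadjusted p under 0.05, and the set holds only 5 rats.

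Leaving out each rat in turn gave 1411 to 2680 called genes (803 to 1461 higher at 6 weeks, 608 to 1219 higher at 10 weeks), with 1411 without rat 70, 1488 without rat 84 and 1558 without rat 87, and 1 to 4 called members (1 without rat 70). Genes higher at 10 weeks numbered 694 without rat 74 and 696 without rat 72. In the wider list it gave 2 to 14 genes higher at 6 weeks and 1 to 2 higher at 10 weeks, and 0 to 2 related pairs. Library size scaling left 1 gene of the wider list higher at 10 weeks and 0 related pairs. Without the most abundant gene in the totals, 592 of all genes and 1 of the wider list were higher at 10 weeks. Sample quality weights gave 5647 called genes (3009 higher at 6 weeks, 2638 higher at 10 weeks), with 22 and 6 of the wider list. The residual component as a term gave 1651 genes higher at 10 weeks, with 5 of the wider list. The larger set alone gave 2003 genes higher at 6 weeks, 16 and 4 of the wider list by direction, and 0 related pairs, with 5 pairs at an unadjusted p under 0.05. The causes were not tested.

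Signs turned for genes that were not called. *Slc40a1* turned to −0.080 with quality weights and −0.098 in the larger set, and its second row to −0.058 in the larger set, and from −0.12 to 0.61 with 1 rat left out, below 0 without rat 75 or 72. *Ftl1* turned to −0.091 and *Aco1* to −0.039 in the smaller set, where signs also turned for *Cpox* (−0.69), *Pcbp2* (0.032), *Slc39a14* (0.051), *Fbxl5* (0.042) and *Hmox1* (0.17). *Fbxl5* and *Hmox1* turned to 0.0026 and 0.026 with library size scaling and to 0.045 and 0.068 without the most abundant gene, and *Hmox1* to 0.032 with quality weights. With quality weights *Slc39a14* (−0.44) and *Hspa9* (−0.27) were called. *Ncoa4* turned to −0.0065 with median-ratio scaling and −0.048 in the larger set. With 1 rat left out, the range of *Hmox1* was −0.12 to 0.067, of *Fbxl5* −0.13 to 0.023, of *Ncoa4* −0.043 to 0.067 and of *Cpox* −0.010 to 0.35.

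The original depth is not known, and the fold changes of genes with values of a few reads, such as *Fdxr*, *Alas2* and *Hpx*, are on a scale with a pseudocount of 1, which understates them.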

Other observations

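In the RefSeq order, 6 genes near *Tf* were read for their own age differences. On one side, *Rab6b*, *Slco2a1*, *Ryk* and *Amotl2* had log2 fold changes of −0.30, −0.48, −0.0094 and −0.0060, and none was called. On the other side, *Topbp1* was at 0.22 and was not called. *Cdv3* was at −0.39 (SE 0.093, limma adjusted p = 0.0149), from 865 to 1043 at 6 weeks and from 1125 to 1490 at 10 weeks, with no overlap. The 6 values lay between −0.48 and 0.22, against −2.56 for *Tf*.

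*Plet1*, singled out by its likeness to *Tf* within ages, had a log2 fold change with age of −0.76 (SE 0.17, limma adjusted p = 0.0109), and *Lalba*, with a likeness of the same size, had −0.72 (SE 0.36, limma adjusted p = 0.195). *Npc2*, which carries cholesterol in the lysosome and had the highest likeness, had 0.059 (SE 0.20, limma adjusted p = 0.869). The differences between these genes were not tested.

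When *Ftl1* and LOC100360087 were summed, and when both *Slc40a1* rows were summed, 3 member rows were called as before. Both sums were chosen after seeing the data.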
